A study of Homo sapiens with 6 samples.

Results

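Collagen chain genes were examined across 6 RNA sequencing libraries of human thyroid cancer cell lines. The members are the protein-coding genes whose symbol is COL, a number, A and a number, from COL1A1 to COL28A1. All 44 such genes were found among the 58884 identifiers of the deposited expression table, and they were sorted into collagen classes from textbook knowledge. The values are FPKM, fragments per kilobase of exon scaled to library depth. The exon length takes in the exons of all annotated transcripts of a gene, such as 19293 bases for COL4A2, 19633 for COL6A3 and 5343 for COL6A1. Levels of different chains, their ratios, sums and class shares are per annotated length, and they depend on that annotation. The transcripts in use were not examined.

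The groups were 8505C cells with a CRABP2 vector or with an empty vector, FTC-133 cells with siCRABP2 or with siControl, and BHT-101 cells with siCRABP2 or with siControl. All 3 are established lines from thyroid carcinomas, follicular for FTC-133 and anaplastic for the others. Each group held 1 library, so a difference within a line has no replicate check. The sources used here do not say whether the siRNA was 1 sequence or a pool, or whether the vector cells were a clone or a pool. Read totals recovered from the values ran from 22084110 to 27958622 per library. CRABP2, which carries retinoic acid to its nuclear receptors, was 38.04 FPKM with the CRABP2 vector and 0.607 FPKM with the empty vector in 8505C, 0.1700 with siCRABP2 and 8.94 with siControl in FTC-133, and 11.4 with siCRABP2 and 27.3 with siControl in BHT-101.

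Defining markers were set beside the labelled thyroid origin. TG, which encodes thyroglobulin, was below 0.1 FPKM in every library. The thyroid transcription factor NKX2-1 reached 1 FPKM in 8505C and FTC-133 and had no read in BHT-101, and PAX8, another, reached 1 FPKM in FTC-133 alone. None of 5 leukocyte genes reached 1 FPKM in any library. Of 4 endothelial genes, CDH5 reached 1 FPKM in 8505C, at 2.46 with the CRABP2 vector and 1.99 with the empty vector. PECAM1 did so in BHT-101 with siCRABP2 alone, at 1.07 FPKM, and no endothelial gene did so in FTC-133. Of 7 fibroblast genes, 0 reached 1 FPKM in 8505C, 4 in FTC-133 (LUM, THY1, ACTA2 and FAP) and 2 in BHT-101 (LUM and PDGFRA). Their sum in BHT-101 was 78.4 FPKM with siCRABP2 and 82.4 FPKM with siControl, of which LUM was 75.5 FPKM with siCRABP2 and 80.2 FPKM with siControl.

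Collagens are triple helices of 3 chains with a repeating glycine, secreted into the matrix around cells or held at the cell surface. Fibrillar collagens form the fibres of stroma, type IV collagen forms the sheet of basement membranes that thyroid follicles rest on, and type VI collagen forms beaded filaments beside them. FACIT collagens decorate fibrils, and transmembrane collagens span the cell membrane. The chains of a trimer assemble inside the cell, so partner chains are set side by side.

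Promoter stretches of 3 kinds are shown, from chains that share a start region or were lower in every comparison. Other chains also meet this rule and are not shown, among them COL6A1 and the pair COL4A3 and COL4A4. RefSeq (GRCh38.p14) gives promoters for 32 of the 44 chains. COL4A1 and COL4A2 start head to head 127 bases apart, and COL4A6 and COL4A5 start head to head 380 bases apart. The first stretch is the 126 bases between the starts of COL4A1 and COL4A2, at chr13:110307158-110307283. The others are the 250 bases before the RefSeq start of COL4A5, at chrX:108439588-108439837, and of COL5A1, at chr9:134641553-134641802. GENCODE release 29, which gives the gene spans below, has other starts. There COL4A2 begins at 110305812, before the first stretch and inside the span of COL4A1, and COL5A1 begins at 134641774, inside its stretch. All 3 stretches are written 5′ to 3′ on the plus strand. Capitals mark the CCAAT box (CCAAT, or ATTGG for the minus strand) and the GC box (GGGCGG, or CCGCCC for the minus strand).
COL4A1-COL4A2 interval: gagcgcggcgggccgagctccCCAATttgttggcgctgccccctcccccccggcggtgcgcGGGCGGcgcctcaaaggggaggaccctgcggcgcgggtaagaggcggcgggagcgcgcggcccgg
COL4A5 upstream: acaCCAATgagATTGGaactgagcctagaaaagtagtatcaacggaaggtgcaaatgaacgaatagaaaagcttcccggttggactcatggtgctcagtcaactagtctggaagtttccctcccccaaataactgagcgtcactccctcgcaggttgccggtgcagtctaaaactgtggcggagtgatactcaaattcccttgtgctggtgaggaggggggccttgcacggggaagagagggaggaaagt
COL5A1 upstream: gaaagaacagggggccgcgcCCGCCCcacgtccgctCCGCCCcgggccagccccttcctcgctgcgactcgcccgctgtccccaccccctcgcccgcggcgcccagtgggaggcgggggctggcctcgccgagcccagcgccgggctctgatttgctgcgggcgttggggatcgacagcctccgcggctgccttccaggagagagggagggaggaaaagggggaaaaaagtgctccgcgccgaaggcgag

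The COL4A1-COL4A2 interval held 1 CCAAT box and 1 GC box, and its GC content was 80.2%, against a median of 60.3% over 34943 promoter windows of that length. On either strand, a CCAAT box was in 21.1%, a GC box in 34.5% and TATAAA in 5.88% of those windows. The COL4A5 stretch held a CCAAT box on each strand and no GC box, at a GC content of 51.2%. The COL5A1 stretch held 2 GC boxes on the minus strand and no CCAAT box, at a GC content of 74.0%. Over all 250-base windows 32.0% held a CCAAT box, 42.5% a GC box and 10.8% TATAAA, which was in none of the 3 stretches. These letters describe the sequence, and binding was not measured.

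The lines differed first in which chains they expressed. Counting a chain as expressed in a line at 1 FPKM or more in either library, 8505C expressed 10 chains, FTC-133 17 and BHT-101 16. Over all libraries 24 of the 44 chains reached 1 FPKM. COL5A1, COL4A1, COL4A2, COL6A1 and COL6A2 did so in all 3 lines, 9 chains in 2 lines and 10 chains in 1 line. The other 20 chains had maxima between 0.00794 and 0.878 FPKM, and 12 of them stayed below 0.1 FPKM in every library. Just below the threshold was COL9A3, a cartilage chain, at 0.878 FPKM, and just above it its partner COL9A2, at 1.55 FPKM, both in BHT-101 with siCRABP2. Among the 20 were COL2A1, the main collagen of cartilage, COL10A1 of growth-plate cartilage, COL4A3 and COL4A4 of kidney basement membrane, and COL15A1 of vessel and muscle basement membranes.

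**Figure D1:**
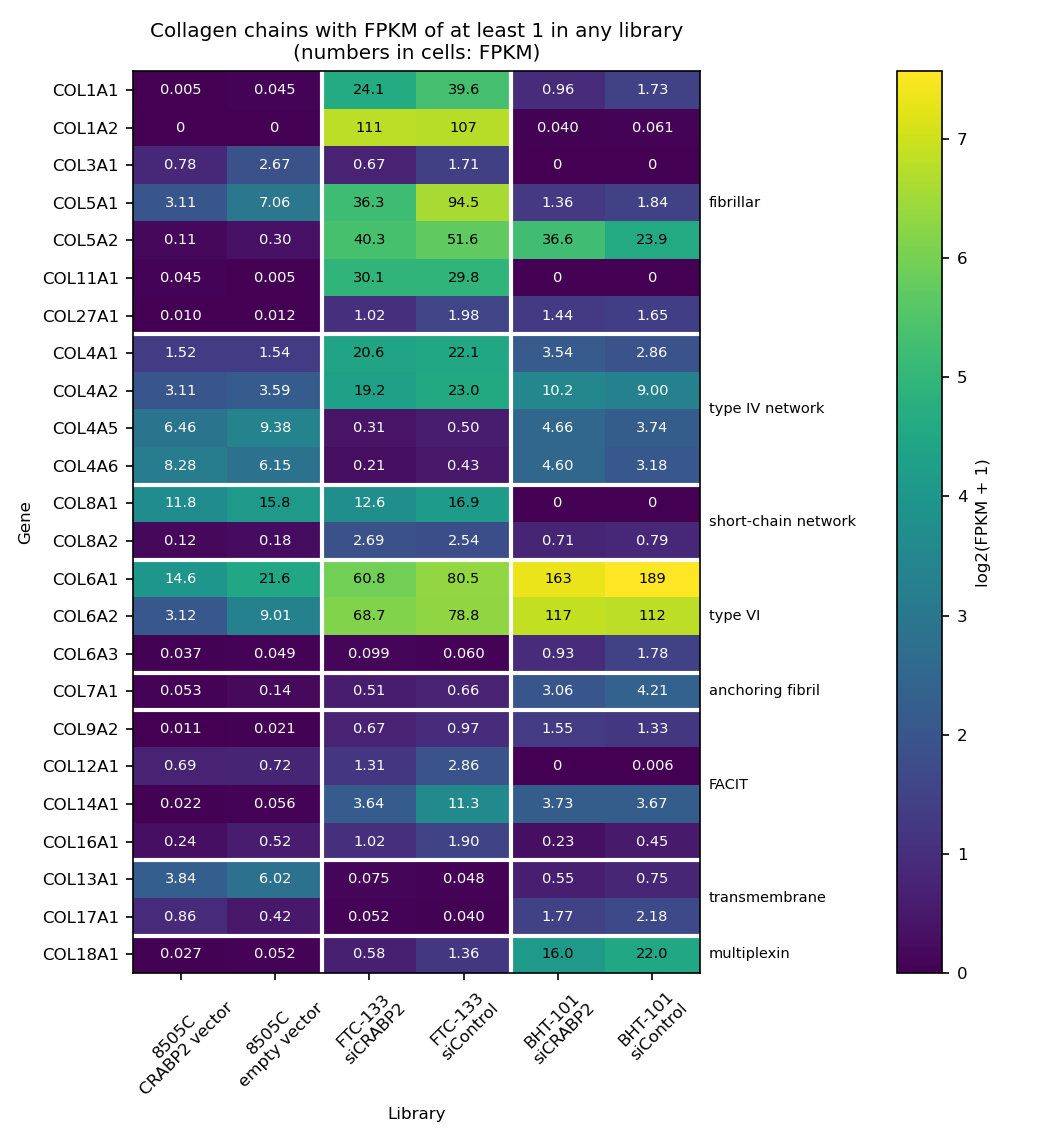
Levels of the 24 collagen chains with FPKM of at least 1 in any library. Columns are the 6 libraries, rows are genes grouped by collagen class, colour is log2(FPKM + 1) and the number in each cell is FPKM. COL1A2 and COL11A1 are bright in both FTC-133 libraries alone, and COL6A1 is brightest in BHT-101.

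Summed over the 44 chains, 8505C held 59.6 FPKM with the CRABP2 vector and 85.9 FPKM with the empty vector. FTC-133 held 438 FPKM with siCRABP2 and 572 FPKM with siControl, and BHT-101 held 373 FPKM with siCRABP2 and 388 FPKM with siControl. Both 8505C libraries were thus below every library of the other lines. By reads, the chains took 0.0530% of assigned reads with the CRABP2 vector (95% Wilson interval 0.0521% to 0.0540%) and 0.0733% with the empty vector (0.0722% to 0.0744%) in 8505C. In FTC-133 they took 0.406% with siCRABP2 (0.404% to 0.409%) and 0.533% with siControl (0.530% to 0.536%), and in BHT-101 0.242% with siCRABP2 (0.240% to 0.244%) and 0.248% with siControl (0.246% to 0.250%). These intervals cover counting error only and hold no variation between cultures. Reads with no molecular identifier may be copies of 1 molecule, so the intervals may be too narrow even for counting error. A lower summed level can mean fewer cells with the transcript or less RNA per cell, and bulk libraries cannot tell these apart.

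The make-up by class set the lines apart. In 8505C type IV chains held 32.8% of the summed chain FPKM with the CRABP2 vector and 24.1% with the empty vector, type VI chains 29.8% with the CRABP2 vector and 35.7% with the empty vector, and short-chain network collagens 19.97% and 18.6%. Fibrillar chains made up 55.7% in FTC-133 with siCRABP2 and 57.1% with siControl. Type VI chains made up 75.1% in BHT-101 with siCRABP2 and 78.1% with siControl. The fibrillar share in 8505C was 7.13% with the CRABP2 vector and 11.99% with the empty vector.

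**Figure D2:**
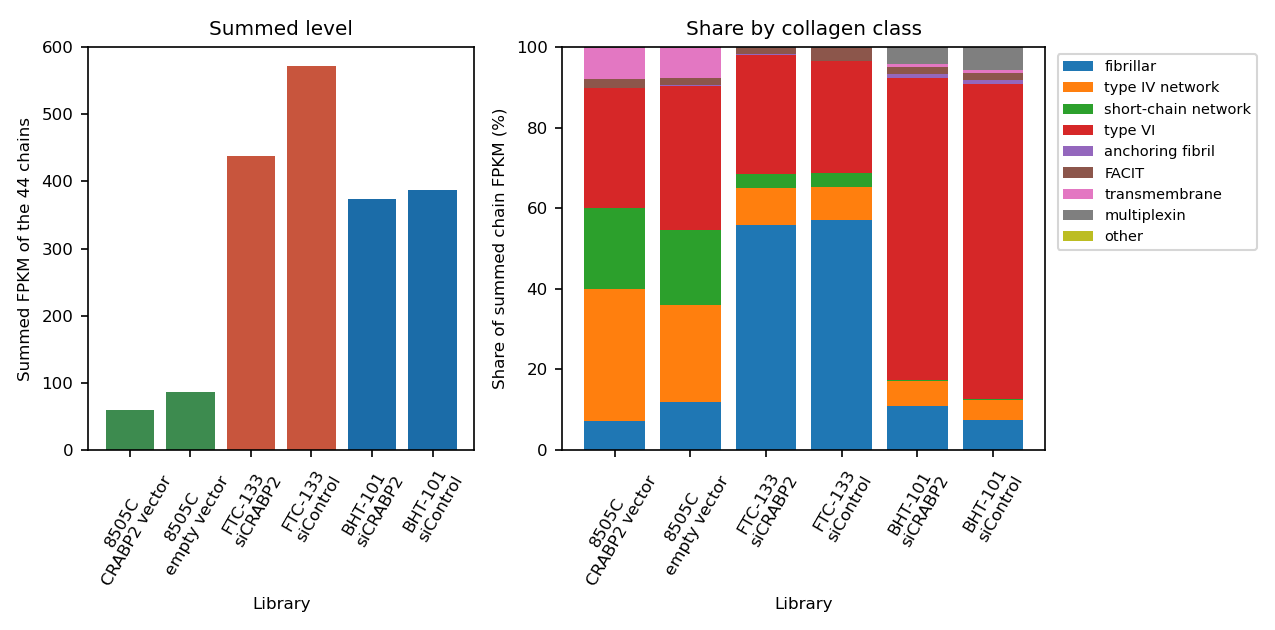
Left, the summed FPKM of the 44 collagen chains in each library, with no error bar because each group is 1 library. Right, the share of that sum held by each collagen class, in percent. BHT-101 is mostly type VI, FTC-133 mostly fibrillar, and 8505C is spread over type IV, type VI, short-chain network and other classes at a lower sum.

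Differences between lines were tested with limma on log2(FPKM + 1), with the lower or higher CRABP2 arm as covariate. The spread in this fit is that between the 2 libraries of a line, which also differ in CRABP2, so its p-values compare these cultures and not thyroid cancers. Of 13736 genes tested, 60.3% passed at an adjusted p under 0.05 between 8505C and BHT-101 (29.2% higher, 31.2% lower), 58.0% between 8505C and FTC-133 (23.7% higher, 34.3% lower) and 46.0% between FTC-133 and BHT-101 (28.3% higher, 17.7% lower). With quantile normalization the genes split into 4236 higher and 3785 lower between 8505C and FTC-133, against 3255 and 4710 as deposited, and into 2975 and 2860 between FTC-133 and BHT-101, against 3888 and 2436. Of the 23 chains tested, 6 were higher and 13 lower in 8505C than in BHT-101, 4 higher and 17 lower in 8505C than in FTC-133, and 10 higher and 7 lower in FTC-133 than in BHT-101. A chain entered the fit with 1 FPKM in 2 libraries, so chains high in a single line were bound to differ, and the counts say nothing beyond the levels themselves. Tests of single chains are given only where the chain would have entered the fit without the higher line of the contrast.

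Type I collagen, the main collagen of connective tissue, belonged to FTC-133. COL1A2 (ENSG00000164692, GRCh38 chromosome 7, 94394561 to 94431232, plus strand) was 111 FPKM with siCRABP2 and 107 FPKM with siControl in FTC-133, 0.0401 with siCRABP2 and 0.0609 with siControl in BHT-101, and it had no read in either 8505C library, where 3 reads would be 0.0122 FPKM with the CRABP2 vector and 0.0118 FPKM with the empty vector. Its partner COL1A1 (chromosome 17, 50183289 to 50201632, minus strand) was 0.00461 FPKM with the CRABP2 vector and 0.0446 FPKM with the empty vector in 8505C, 24.1 with siCRABP2 and 39.6 with siControl in FTC-133, and 0.962 with siCRABP2 and 1.73 with siControl in BHT-101. Type I collagen normally holds more COL1A1 than COL1A2 chains. The per-length ratio of COL1A2 to COL1A1 was 4.63 with siCRABP2 and 2.71 with siControl in FTC-133. In BHT-101 it was 0.0417 with siCRABP2 and 0.0351 with siControl. Per annotated length, COL1A2 was thus above COL1A1 in both FTC-133 libraries.

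COL11A1, a fibrillar chain of thin cartilage fibrils, was also an FTC-133 gene. It was 0.0448 FPKM with the CRABP2 vector and 0.00481 FPKM with the empty vector in 8505C, 30.1 with siCRABP2 and 29.8 with siControl in FTC-133, and it had no read in either BHT-101 library, where 3 reads would be 0.0148 FPKM with siCRABP2 and 0.0118 FPKM with siControl. Its partner COL11A2 stayed below 0.2 FPKM in every library. COL11A1 and COL1A2 were nearly equal in the 2 FTC-133 libraries, and both were below 0.1 FPKM in every library of the other lines.

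Type V collagen, which sits inside type I fibrils and sets their diameter, was split between lines by chain. COL5A1 (chromosome 9, 134641774 to 134844843, plus strand) was 3.11 FPKM with the CRABP2 vector and 7.06 FPKM with the empty vector in 8505C, 36.3 with siCRABP2 and 94.5 with siControl in FTC-133, and 1.36 with siCRABP2 and 1.84 with siControl in BHT-101. COL5A2 (chromosome 2, 189031896 to 189225312, minus strand) was 0.111 FPKM with the CRABP2 vector and 0.299 FPKM with the empty vector in 8505C, 40.3 with siCRABP2 and 51.6 with siControl in FTC-133, and 36.6 with siCRABP2 and 23.9 with siControl in BHT-101. 8505C thus carried mostly COL5A1, BHT-101 mostly COL5A2, and FTC-133 both. The COL5A1 to COL5A2 ratio per length was 27.9 with the CRABP2 vector and 23.6 with the empty vector in 8505C, 0.899 with siCRABP2 and 1.83 with siControl in FTC-133, and 0.0373 with siCRABP2 and 0.07701 with siControl in BHT-101. For COL5A2, 8505C minus BHT-101 was -4.67 (SE 0.25, limma adjusted p = 7.3e-05), while for COL5A1 it was 1.15 (SE 0.50, limma adjusted p = 0.0898), which missed the threshold.

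The remaining fibrillar chains were low. COL3A1, the type III chain of elastic tissues, was 0.778 FPKM with the CRABP2 vector and 2.67 FPKM with the empty vector in 8505C, 0.6696 with siCRABP2 and 1.71 with siControl in FTC-133, and it had no read in either BHT-101 library, where 3 reads would be 0.0197 FPKM with siCRABP2 and 0.0158 FPKM with siControl. The ranges of 8505C and FTC-133 overlapped. COL27A1, a cartilage chain, was 0.009696 FPKM with the CRABP2 vector and 0.0125 FPKM with the empty vector in 8505C, 1.02 with siCRABP2 and 1.98 with siControl in FTC-133, and 1.44 with siCRABP2 and 1.65 with siControl in BHT-101. FTC-133 and BHT-101 overlapped for this chain, and 8505C was near 0.

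Type IV chains fell into head-to-head pairs with opposite orders of lines. COL4A1 (chromosome 13, 110148963 to 110307233, minus strand), a chain of nearly all basement membranes together with COL4A2, was 1.52 FPKM with the CRABP2 vector and 1.54 FPKM with the empty vector in 8505C, 20.6 with siCRABP2 and 22.1 with siControl in FTC-133, and 3.54 with siCRABP2 and 2.86 with siControl in BHT-101. COL4A2 (chromosome 13, 110305812 to 110513209, plus strand) was 3.11 FPKM with the CRABP2 vector and 3.59 FPKM with the empty vector in 8505C, 19.2 with siCRABP2 and 22.96 with siControl in FTC-133, and 10.2 with siCRABP2 and 8.995 with siControl in BHT-101. Both were highest in FTC-133 and lowest in 8505C, with no overlap between neighbouring lines. COL4A2 over COL4A1 was 2.04 with the CRABP2 vector and 2.33 with the empty vector in 8505C, 0.934 with siCRABP2 and 1.04 with siControl in FTC-133, and 2.89 with siCRABP2 and 3.14 with siControl in BHT-101. In the line fit, FTC-133 minus BHT-101 was 2.42 (SE 0.17, limma adjusted p = 0.0002) for COL4A1 and 1.05 (SE 0.18, limma adjusted p = 0.00503) for COL4A2. Short antisense genes share 95 exon bases with COL4A2, and the sources used here do not state the strand setting.

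COL4A5 and COL4A6, which pair in the basement membranes of skin and smooth muscle, ran the other way. COL4A5 (chromosome X, 108439844 to 108697545, plus strand) was 6.46 FPKM with the CRABP2 vector and 9.38 FPKM with the empty vector in 8505C, 0.313 with siCRABP2 and 0.499 with siControl in FTC-133, and 4.66 with siCRABP2 and 3.74 with siControl in BHT-101. COL4A6 (chromosome X, 108155607 to 108439497, minus strand) was 8.28 FPKM with the CRABP2 vector and 6.15 FPKM with the empty vector in 8505C, 0.206 with siCRABP2 and 0.4297 with siControl in FTC-133, and 4.596 with siCRABP2 and 3.18 with siControl in BHT-101. Both were highest in 8505C and lowest in FTC-133, with no overlap between lines. In the line fit, 8505C minus FTC-133 was 2.65 (SE 0.21, limma adjusted p = 0.00026) for COL4A5 and 2.63 (SE 0.24, limma adjusted p = 0.00037) for COL4A6. COL4A3 and COL4A4, whose RefSeq starts are head to head 419 bases apart, stayed below 0.2 FPKM everywhere.

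**Figure D3:**
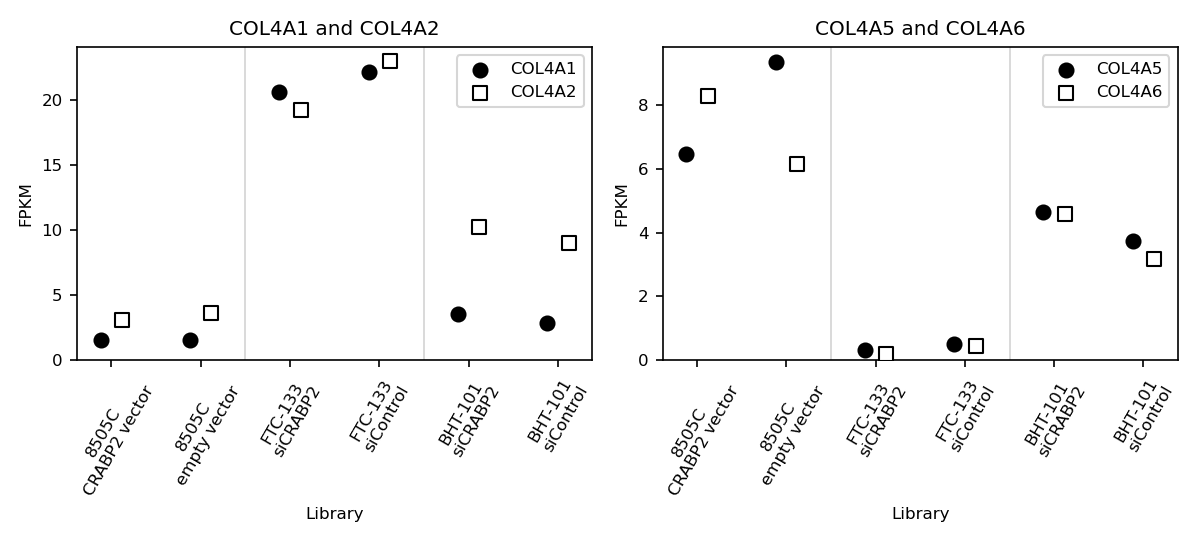
FPKM of the head-to-head type IV pairs in each library, COL4A1 and COL4A2 on the left, COL4A5 and COL4A6 on the right, with 1 point per gene and library. The first pair is highest in FTC-133 and the second in 8505C. In 8505C COL4A5 lies below COL4A6 with the CRABP2 vector and above it with the empty vector.

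Type VI collagen was the most abundant class in BHT-101. COL6A1 (chromosome 21, 45981737 to 46005050, plus strand) was 14.6 FPKM with the CRABP2 vector and 21.6 FPKM with the empty vector in 8505C, 60.8 with siCRABP2 and 80.5 with siControl in FTC-133, and 163 with siCRABP2 and 189 with siControl in BHT-101. COL6A2 (chromosome 21, 46098097 to 46132849, plus strand) was 3.12 FPKM with the CRABP2 vector and 9.01 FPKM with the empty vector in 8505C, 68.7 with siCRABP2 and 78.8 with siControl in FTC-133, and 117 with siCRABP2 and 112 with siControl in BHT-101. COL6A3, the large chain that completes the usual type VI monomer, was 0.0369 FPKM with the CRABP2 vector and 0.04904 FPKM with the empty vector in 8505C, 0.0993 with siCRABP2 and 0.0595 with siControl in FTC-133, and 0.928 with siCRABP2 and 1.78 with siControl in BHT-101. Both COL6A1 and COL6A2 were lowest in 8505C, and COL6A3 was low in every library. The COL6A1 to COL6A3 ratio per length was 395 with the CRABP2 vector and 439.9 with the empty vector in 8505C, 612 with siCRABP2 and 1352 with siControl in FTC-133, and 176 with siCRABP2 and 106 with siControl in BHT-101. COL6A5 and COL6A6, which can take the place of COL6A3, stayed below 0.2 FPKM. In the line fit, 8505C minus BHT-101 was -3.23 (SE 0.25, limma adjusted p = 0.00023) for COL6A1 and -4.17 (SE 0.35, limma adjusted p = 0.00029) for COL6A2.

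Short-chain network collagens are known from vessel walls and the cornea. COL8A1 was 11.8 FPKM with the CRABP2 vector and 15.8 FPKM with the empty vector in 8505C, 12.6 with siCRABP2 and 16.9 with siControl in FTC-133, and it had no read in either BHT-101 library, where 3 reads would be 0.0143 FPKM with siCRABP2 and 0.0114 FPKM with siControl. 8505C and FTC-133 overlapped, and 8505C minus FTC-133 was -0.09 (SE 0.23, limma adjusted p = 0.755). Its partner COL8A2 was 0.116 FPKM with the CRABP2 vector and 0.178 FPKM with the empty vector in 8505C, 2.69 with siCRABP2 and 2.54 with siControl in FTC-133, and 0.709 with siCRABP2 and 0.789 with siControl in BHT-101. COL8A2 thus reached 1 FPKM in FTC-133 alone.

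BHT-101 held chains known from epithelial attachment. COL7A1, which forms the anchoring fibrils of skin, was 0.0532 FPKM with the CRABP2 vector and 0.138 FPKM with the empty vector in 8505C, 0.508 with siCRABP2 and 0.662 with siControl in FTC-133, and 3.06 with siCRABP2 and 4.21 with siControl in BHT-101. COL17A1, a hemidesmosome protein, was 0.859 FPKM with the CRABP2 vector and 0.421 FPKM with the empty vector in 8505C, 0.0521 with siCRABP2 and 0.0399 with siControl in FTC-133, and 1.77 with siCRABP2 and 2.18 with siControl in BHT-101. Both were highest in BHT-101. COL18A1, the source of the angiogenesis inhibitor endostatin, was 0.0267 FPKM with the CRABP2 vector and 0.0515 FPKM with the empty vector in 8505C, 0.5804 with siCRABP2 and 1.36 with siControl in FTC-133, and 16.02 with siCRABP2 and 21.98 with siControl in BHT-101. The antisense gene SLC19A1 shares 16.4% of the exon length of COL18A1, so some of its reads are uncertain. Of 5 epithelial genes, 2 reached 1 FPKM in 8505C, 3 in FTC-133 and 5 in BHT-101.

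COL13A1, a transmembrane collagen of the neuromuscular junction, marked 8505C. It was 3.84 FPKM with the CRABP2 vector and 6.02 FPKM with the empty vector in 8505C, 0.07496 with siCRABP2 and 0.0479 with siControl in FTC-133, and 0.547 with siCRABP2 and 0.747 with siControl in BHT-101. Among the FACIT chains, COL14A1, which regulates fibril growth, was 0.0222 FPKM with the CRABP2 vector and 0.0558 FPKM with the empty vector in 8505C, 3.64 with siCRABP2 and 11.3 with siControl in FTC-133, and 3.73 with siCRABP2 and 3.67 with siControl in BHT-101. COL12A1, known from tendon and ligament, was 0.686 FPKM with the CRABP2 vector and 0.722 FPKM with the empty vector in 8505C, 1.31 with siCRABP2 and 2.86 with siControl in FTC-133, and 0 with siCRABP2 and 0.00573 with siControl in BHT-101. With siCRABP2 in BHT-101, 3 reads would be 0.0108 FPKM. COL12A1 and COL16A1 reached 1 FPKM in FTC-133 alone. COL16A1 was 0.245 FPKM with the CRABP2 vector and 0.516 FPKM with the empty vector in 8505C, 1.02 with siCRABP2 and 1.903 with siControl in FTC-133, and 0.227 with siCRABP2 and 0.448 with siControl in BHT-101. COL9A2, a chain of cartilage type IX collagen, was 0.0107 FPKM with the CRABP2 vector and 0.0208 FPKM with the empty vector in 8505C, 0.672 with siCRABP2 and 0.965 with siControl in FTC-133, and 1.55 with siCRABP2 and 1.33 with siControl in BHT-101. It reached 1 FPKM in BHT-101 alone, and no FACIT chain did so in 8505C.

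FTC-133 cells with siCRABP2 were set against siControl cells for the effect of CRABP2 knockdown. COL5A1 had 11032 reads with siCRABP2 and 26249 reads with siControl, a log2 ratio of depth-scaled reads of -1.38, with a 95% exact (Clopper-Pearson) counting interval of -1.41 to -1.35. COL14A1 had 1008 reads with siCRABP2 and 2868 reads with siControl, a ratio of -1.64 (-1.74 to -1.54). On the log2(FPKM + 1) scale these were the 2 chains of 17 at least 2-fold lower, at -1.36 and -1.41, and no chain was 2-fold higher. Of 12832 genes measured (1 FPKM or more in either library), 2.35% were at least 2-fold lower and 2.36% higher, 4.71% in all, or 3.0% of the protein-coding ones. Such ratios compare 2 libraries, not conditions, and their intervals hold counting error alone.

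Further chains of FTC-133 were lower by less. COL1A1 had a log2 ratio of reads of -0.72 (-0.76 to -0.67), while its partner COL1A2 had 0.06 (0.03 to 0.08), a sign that turned under quantile normalization. COL12A1 had 443 reads with siCRABP2 and 886 reads with siControl, a ratio of -1.13 (-1.30 to -0.97). COL3A1 (-1.35), COL18A1 (-1.22), COL27A1 (-0.96) and COL16A1 (-0.90) also had intervals below 0, all with under 2 FPKM in both libraries. Smaller ratios, with intervals below 0, were -0.43 for COL8A1, -0.40 for COL6A1, -0.36 for COL5A2, -0.26 for COL4A2, -0.20 for COL6A2 and -0.10 for COL4A1. The intervals of COL11A1 (0.01) and COL8A2 (0.08) included 0.

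In all, 14 of 17 measured chains of FTC-133 were below 0 with siCRABP2, against 53.9% of all genes measured and 53.8% of the protein-coding ones. The median difference over these chains was -0.40, against -0.04 over all genes. Under quantile normalization COL1A2 and COL11A1 were also below 0, which gave 16 of 17. COL3A1 and COL18A1 passed 1 FPKM in the siControl library alone. Over the 15 chains at 1 FPKM in both libraries 12 were below 0, against 53.2% of all such genes, and over all 44 chains 28 were below 0, 13 above and 3 equal. Of the 7 fibroblast markers 4 were measured, all 4 below 0, with a sum over the list of 81.8 FPKM with siCRABP2 and 120 FPKM with siControl. LUM, which encodes lumican, a proteoglycan of collagen fibrils, was 6.53 FPKM with siCRABP2 and 13.2 FPKM with siControl in FTC-133. The part of these markers in the collagen values was not tested.

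**Figure D4:**
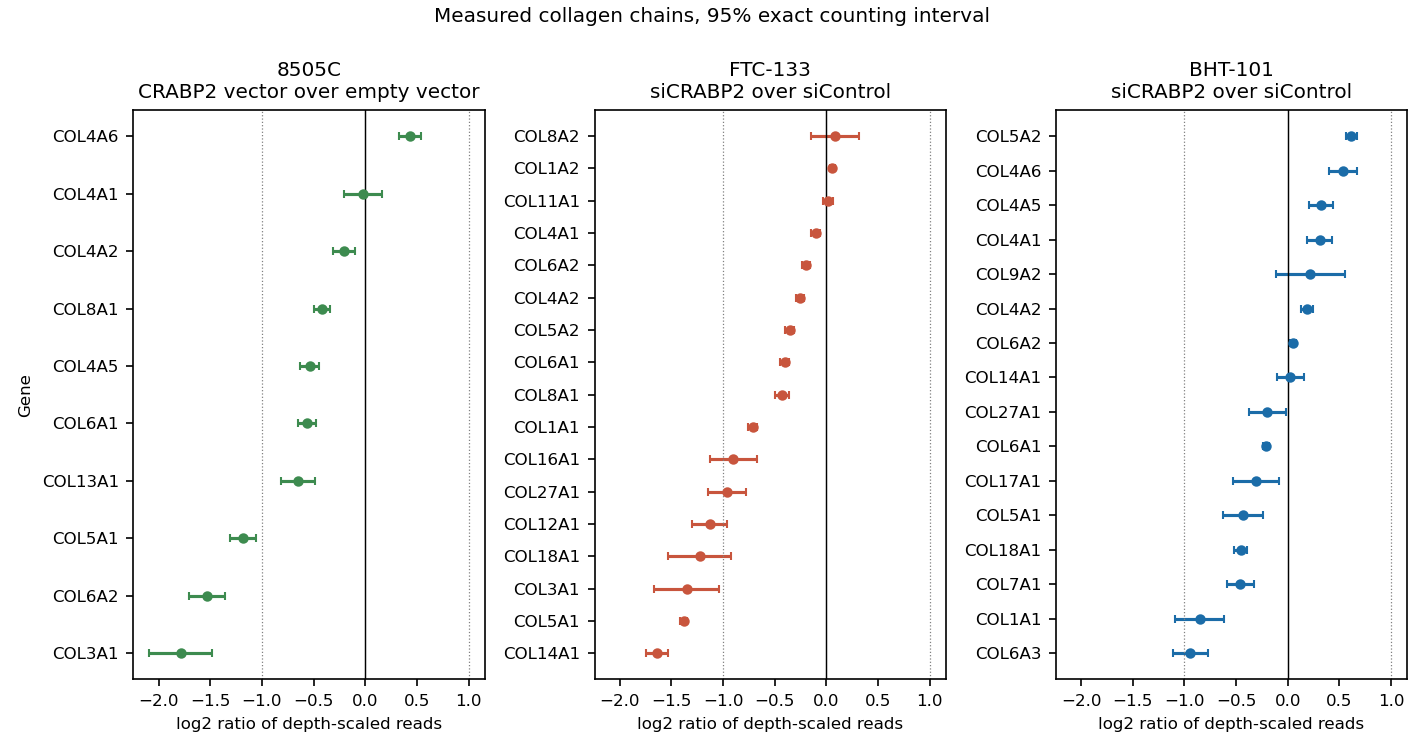
Log2 ratio of depth-scaled reads for each measured chain, CRABP2 vector over empty vector in 8505C and siCRABP2 over siControl in FTC-133 and BHT-101. Bars are 95% exact counting intervals, which hold no variation between cultures, and dotted lines mark 2-fold. Points lie mostly below 0 in 8505C and FTC-133 (COL1A2 and COL11A1 in FTC-133 change sign under quantile normalization) and on both sides of 0 in BHT-101.

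In BHT-101, where CRABP2 was 11.4 FPKM with siCRABP2 and 27.3 FPKM with siControl, a smaller difference than in FTC-133, the chains lay on both sides of 0. COL5A2 had 5984 reads with siCRABP2 and 4884 reads with siControl, a log2 ratio of depth-scaled reads of 0.62 (0.56 to 0.67). All 4 expressed type IV chains were higher with siCRABP2, COL4A6 with 0.53 (0.40 to 0.67), COL4A5 with 0.32 (0.20 to 0.43), COL4A1 with 0.31 (0.19 to 0.43) and COL4A2 with 0.19 (0.13 to 0.25). At the other end, COL6A3 had -0.94 (-1.11 to -0.77) and COL1A1 -0.85 (-1.09 to -0.61), both with under 2 FPKM. COL7A1 (-0.46), COL18A1 (-0.46), COL5A1 (-0.43), COL17A1 (-0.30), COL6A1 (-0.21) and COL27A1 (-0.20) also had intervals below 0. COL6A2 (0.05) had an interval above 0, and those of COL9A2 (0.22) and COL14A1 (0.02) included it.

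No chain of 16 in BHT-101 was 2-fold apart on the log2(FPKM + 1) scale, where 1.13% of 12055 measured genes were (0.589% higher and 0.539% lower), or 0.181% of the protein-coding ones. Of the 16 chains 8 were below 0, against 46.7% of all genes and 46.6% of the protein-coding ones, and the median was -0.05, against 0.01 over all genes. These shares lie near the background. COL1A1 and COL6A3 passed 1 FPKM in the siControl library alone. Over the 14 chains at 1 FPKM in both libraries 6 were below 0 and 8 above, with a median of 0.04, so the sign of the median depends on these 2 chains. Over all 44 chains 19 were below 0, 15 above and 10 equal. The difference between the BHT-101 libraries ran against GC content (Pearson r = -0.227 across the 12055 genes, which are not independent replicates), and the measured chains had a median GC content of 60.7%, against 48.2% over all genes. With the GC trend removed, a step chosen after the data were seen, 0 of the 16 chains changed sign.

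The knockdown was then tested over both lines together, with limma and the lines as blocks. No gene of 12953 passed at an adjusted p under 0.05 (0.0%), and 539 had an unadjusted p under 0.05, which is 4.16%. Of 21 chains tested, COL1A1, COL5A1 and COL18A1 had an unadjusted limma p under 0.05, all 3 below 0 in both lines. COL1A1 had a log2 difference of -0.59 (SE 0.17), COL5A1 of -0.81 (SE 0.27) and COL18A1 of -0.50 (SE 0.17), each with a limma adjusted p = 0.87. The median over the tested chains was -0.09, against -0.01 over all genes. The fit has 1 residual degree of freedom.

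In 8505C the libraries with the CRABP2 vector and with the empty vector were set against each other. COL6A2 had 369 reads with the CRABP2 vector and 1101 reads with the empty vector, a log2 ratio of depth-scaled reads of -1.53 (-1.70 to -1.36). COL3A1 had 117 reads with the CRABP2 vector and 416 reads with the empty vector, a ratio of -1.78 (-2.09 to -1.48). These were the 2 chains of 10 at least 2-fold lower on the log2(FPKM + 1) scale, at -1.28 for COL6A2 and -1.05 for COL3A1, and no chain was 2-fold higher. COL3A1 reached 1 FPKM in the empty vector library alone, so it was measured only through the library where it was high. Among the 9 chains at 1 FPKM in both libraries, only COL6A2 was 2-fold lower. Of 11731 measured genes 1.86% were at least 2-fold lower and 1.85% higher, 3.71% in all, or 2.45% of the protein-coding ones. COL5A1, with 768 reads with the CRABP2 vector and 1805 reads with the empty vector, lay just outside at -0.97, with a ratio of -1.18 (-1.31 to -1.06), and it passed 2-fold with a pseudocount of 0.1 (-1.16) or 0.5 (-1.07).

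Partner chains of type VI and type IV collagen differed from each other in 8505C. COL6A1 had a log2 ratio of -0.57 (-0.65 to -0.48), smaller than that of COL6A2, and the COL6A1 to COL6A2 ratio per length was 4.67 with the CRABP2 vector and 2.396 with the empty vector. COL4A5 had 1693 reads with the CRABP2 vector and 2542 reads with the empty vector, a ratio of -0.54 (-0.63 to -0.45). Its head-to-head neighbour COL4A6 had 1698 reads with the CRABP2 vector and 1304 reads with the empty vector, a ratio of 0.43 (0.33 to 0.54). The pair thus lay on opposite sides of 0, and COL4A5 over COL4A6 per length was 0.780 with the CRABP2 vector and 1.53 with the empty vector. COL4A1 had -0.02 (-0.20 to 0.16), an interval that included 0, and COL4A2 had -0.21 (-0.32 to -0.10). COL13A1 had -0.65 (-0.81 to -0.49) and COL8A1 -0.42 (-0.50 to -0.35).

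Of 10 measured chains in 8505C, 9 were below 0 with the CRABP2 vector, against 47.2% of all genes measured and 47.4% of the protein-coding ones, and the remaining chain, COL4A6, was above, as were 52.8% of all genes. The median was -0.51, against 0.02 over all genes. COL3A1 passed 1 FPKM in the empty vector library alone, and without it 8 of 9 were below 0. Over all 44 chains 29 were below 0, 11 above and 4 equal. None of the 7 fibroblast markers reached 1 FPKM in either library, with sums of 1.15 FPKM with the CRABP2 vector and 1.97 FPKM with the empty vector. The epithelial keratins KRT8 and KRT18 were higher with the CRABP2 vector, by 0.72 and 0.63 on the log2(FPKM + 1) scale, and their part in the collagen values was not tested.

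COL5A1 was below 0 in each comparison, at -0.97 in 8505C, -1.36 in FTC-133 and -0.26 in BHT-101, while CRABP2 was higher with the vector and lower with siCRABP2. COL6A1 likewise had -0.54, -0.40 and -0.21. In all, 5 chains reached 1 FPKM in all 3 lines. The others of these, COL4A1, COL4A2 and COL6A2, were below 0 in 8505C and FTC-133 and above 0 in BHT-101. Over all genes 47.2% were below 0 in 8505C, 53.9% in FTC-133 and 46.7% in BHT-101, and the share below 0 in all 3 was not computed. All 6 libraries were then fitted with limma by CRABP2 arm, the lower arm being siCRABP2 and the empty vector. No gene of 11628 passed (0.0%), and 372 had an unadjusted p under 0.05, which is 3.2%. Of 13 chains tested 0 had an unadjusted p under 0.05. Below 0 were 8 of these chains, against 54.6% of all genes, with a median of -0.024, against -0.017 over all genes. These values lie near the background. COL1A1 had the smallest p among these, with a log2 difference, lower minus higher arm, of -0.37 (SE 0.18, limma adjusted p = 0.9995), and COL5A1 had -0.22 (SE 0.38). Without the FTC-133 libraries 12 genes passed as higher and 10 as lower, none of them a collagen chain. There 10 of the 13 chains were above 0 and 3 below, against 50.8% of all genes below 0. The median of the chains was 0.16, against -0.004 over all genes. An unadjusted limma p under 0.05 was found for 2 chains, both above 0, and for 592 of the 11628 genes. With the BHT-101 libraries left out 10 of the 13 chains were below 0, against 55.4% of all genes. With the 8505C libraries left out 9 of the 13 were, against 52.3%. The side of 0 on which most chains lay thus changed with the line left out. Without the BHT-101 libraries 1 gene passed as lower, not a collagen chain.

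Collagen chains need enzymes and chaperones in the endoplasmic reticulum, and 23 such genes were examined as a list. In FTC-133, where most chains were below 0 with siCRABP2, 18 of 23 of these genes were above 0, against 46.1% of all genes, with a median of 0.29. FKBP14, a prolyl isomerase, was 23.8 FPKM with siCRABP2 and 12.7 FPKM with siControl in FTC-133, a difference of 0.85. Differences of list genes are all given in log2(FPKM + 1). P4HA2, a prolyl hydroxylase subunit, was 26.9 FPKM with siCRABP2 and 15.3 FPKM with siControl in FTC-133 (0.78), and P3H1, a prolyl 3-hydroxylase, was 37.04 FPKM with siCRABP2 and 21.8 FPKM with siControl in FTC-133 (0.74). MIA2, which helps load large cargo for export, had 0.55. SERPINH1, the collagen chaperone HSP47, was 129 FPKM with siCRABP2 and 94.4 FPKM with siControl in FTC-133. No gene of the list was 2-fold apart on the log2(FPKM + 1) scale in any line.

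In 8505C the enzymes lay on the same side as the chains, 17 of 20 being below 0 with the CRABP2 vector, against 47.2% of all genes, with a median of -0.41. P3H2, a prolyl 3-hydroxylase, had -0.84, the lysyl hydroxylase PLOD1 -0.80, and P3H1 -0.75. P4HB, the shared subunit of prolyl hydroxylase, was 59.7 FPKM with the CRABP2 vector and 98.5 FPKM with the empty vector in 8505C (-0.71). In BHT-101, 13 of 21 were above 0, against 53.3% of all genes, with a median of 0.04. The differences farthest from 0 there were 0.33 for FKBP10, another prolyl isomerase, and 0.22 each for PLOD2, P4HA1 and TMEM38B.

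**Figure D5:**
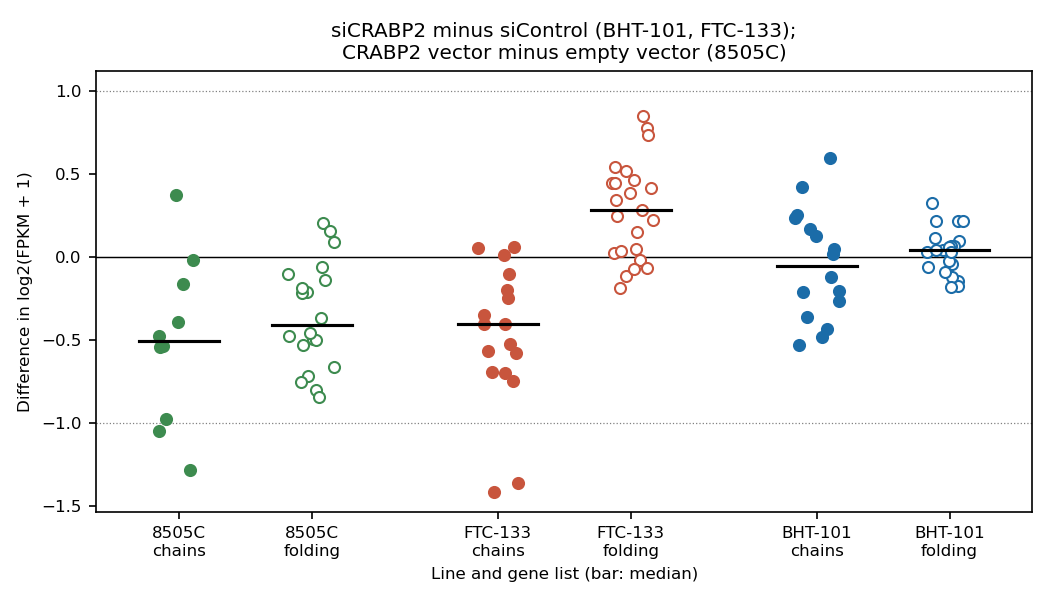
Differences in log2(FPKM + 1) of the measured collagen chains (filled) and of the measured folding and modification genes (open) in each line, with 1 point per gene and a bar at the median. In 8505C both medians lie below 0, at -0.51 for chains and -0.41 for folding genes, and in FTC-133 they lie on opposite sides of 0, at -0.40 and 0.29.

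Of 14 genes of propeptide cleavage and cross-linking, 5 were measured in 8505C, 10 in FTC-133 and 8 in BHT-101. None of those measured was 2-fold apart on the log2(FPKM + 1) scale, which understates changes of low genes. LOXL1, for example, was 1.38 FPKM with the CRABP2 vector and 0.638 FPKM with the empty vector in 8505C. LOX, a lysyl oxidase that cross-links fibrils, was 47.4 FPKM with siCRABP2 and 25.7 FPKM with siControl in FTC-133 (0.86). In the same cells LOXL1, a related oxidase, had -0.63, and the propeptidases ADAMTS3 and ADAMTS14 had -0.53 and 0.53. In 8505C LOXL2 had -0.68, the procollagen C-proteinase BMP1 -0.66, LOXL1 0.54 and LOX 0.20. In BHT-101 the proprotein convertase FURIN had -0.38, followed by LOXL4 (0.24), TLL1 (0.20) and BMP1 (-0.09). Below 0 were 3 of 5 in 8505C (median -0.14), against 47.2% of all genes. In FTC-133 6 of 10 were below 0 (median -0.14), against 53.9%, and in BHT-101 3 of 8 (median 0.03), against 46.7%.

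Of 11 receptor and uptake genes none of those measured was 2-fold apart on the log2(FPKM + 1) scale. Below 0 were 5 of 7 measured in 8505C (median -0.20), against 47.2% of all genes. In FTC-133 3 of 5 were below 0 (median -0.05), against 53.9%, and in BHT-101 4 of 6 (median -0.10), against 46.7%. MRC2, an endocytic collagen receptor, was 13.9 FPKM with siCRABP2 and 24.2 FPKM with siControl in BHT-101 (-0.76) and had -0.30 in FTC-133. In 8505C the collagen-binding integrin chains ITGA11, ITGA1 and ITGA2 had -0.46, -0.36 and -0.32, and DDR1, a collagen-activated kinase, had 0.24. In FTC-133 ITGA2 had 0.37, ITGA11 -0.06 and ITGB1 -0.05, and in BHT-101 ITGA10 had -0.35, ITGB1 0.17 and ITGA1 -0.12.

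Of 8 collagen-cleaving genes 4 were measured in each line. MMP1, interstitial collagenase, was 5.62 FPKM with siCRABP2 and 0.654 FPKM with siControl in FTC-133, a difference of 2.00, while it was 13736 FPKM with the CRABP2 vector and 13763 FPKM with the empty vector in 8505C. MMP13, another collagenase, was 0.448 FPKM with the CRABP2 vector and 1.98 FPKM with the empty vector in 8505C (-1.04). On the log2(FPKM + 1) scale MMP1 was at least 2-fold higher in FTC-133 (1 of 4 measured, against 2.36% of all genes). MMP13 was at least 2-fold lower in 8505C (1 of 4, against 1.86%), and no other gene of the list was 2-fold apart. Each of the 2 genes reached 1 FPKM only in the library where it was high, siCRABP2 for MMP1 and the empty vector for MMP13. The filter thus let them in by that difference, and the shares are not a result about the list. MMP14, a membrane-bound collagenase, was 877 FPKM with siCRABP2 and 574 FPKM with siControl in FTC-133 (0.61). MMP2, which cleaves denatured collagen, was 195 FPKM with siCRABP2 and 274 FPKM with siControl in FTC-133 (-0.49) and 26.2 FPKM with siCRABP2 and 41.7 FPKM with siControl in BHT-101 (-0.65). The smaller differences were -0.21 for MMP2 and -0.12 for MMP14 in 8505C, -0.36 for FAP, a surface protease, in FTC-133, and 0.58 for MMP13, -0.27 for MMP14 and -0.11 for the protease CTSK in BHT-101. Below 0 were 4 of 4 in 8505C (median -0.16), against 47.2% of all genes. In FTC-133 2 of 4 were below 0 (median 0.13), against 53.9%, and in BHT-101 3 of 4 (median -0.19), against 46.7%.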

How the data were processed

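The authors deposited FPKM values, scaled for exon length and library depth, for 58884 identifiers in 6 libraries. FastQC, Trimmomatic 0.38 and featureCounts 2.0.0 were used with GRCh38, per the submitters' processing notes, and the sources used here do not state the aligner, annotation release or strand setting. Names, positions and exon lengths came from GENCODE release 29. Values were analysed as log2(FPKM + 1), which understates changes of low genes. A gene was measured in a line at 1 FPKM or more in either library, and called by size at a difference of at least 1, with no test. limma 3.58.1 (R 4.3.3, variance trend, Benjamini-Hochberg adjustment over all genes, threshold 0.05) was fitted across lines after a check on simulated data. Genes needed 1 FPKM in 2 of 4 libraries (knockdown), 3 of 6 (CRABP2 arms) or 2 of 6 (lines), and the blocks are the cell lines named in the labels. Residual degrees of freedom were 1 for knockdown and 2 for the other fits. Nothing says that cultures were separate, so p-values measure the spread between these libraries.

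Reads were recovered because FPKM times exon length falls on whole multiples of a step per library. Release 29 lengths gave whole reads for 76.1% of 33700 genes above 0 and for 27 chains, and a searched length did so for the other 17 (tolerance 0.01 reads).

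All 44 chains were accounted for, with values in each library for those reaching 1 FPKM, and up to 4 genes per pathway list and line with the largest difference were named. SERPINH1, LUM, PDGFRA, KRT8 and KRT18 were chosen with values in view. The members, lists and tests were chosen with earlier results of these data known. Alternatives were other pseudocounts, other filters, quantile normalization, median centring, fits without the block or the variance trend, libraries left out, and removal of the GC trend in 20 bins, the last added after seeing the data.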

Additional observations from a re-analysis of the deposited data

Results flagged for a closer look

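4 chains differed in opposite directions between siCRABP2 and siControl in the lines FTC-133 and BHT-101, with counting intervals clear of 0 in each line. On the log2(FPKM + 1) scale, COL5A2 differed by -0.35 in FTC-133 and by 0.60 in BHT-101. COL4A1 differed by -0.10 in FTC-133 and by 0.23 in BHT-101, and its head-to-head neighbour COL4A2 by -0.24 and 0.17. COL6A2 differed by -0.19 in FTC-133 and by 0.05 in BHT-101, where it was 0.00246, close to 0, under quantile normalization. Of the other chains measured in both lines, COL1A1, COL5A1, COL27A1, COL6A1 and COL18A1 were below 0 in both. COL14A1 was below 0 in FTC-133, and its BHT-101 interval included 0. Over all genes measured in each line, 53.9% were below 0 in FTC-133 and 46.7% in BHT-101. The share of all genes with opposite signs was not computed, so these chains cannot be set against it. With 1 library in each group the difference between the lines was not tested, and such intervals hold no variation between cultures.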

How the results depend on the processing

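The numbers of expressed chains stayed within 1.5 times of those reported at 0.5 FPKM, at 2 FPKM and with both libraries required. With a pseudocount of 0.1, 5 chains in place of 2 were at least 2-fold lower in FTC-133, and at 5 FPKM or more 1 in place of 2 was so in 8505C. The median difference was 0.0513 in BHT-101 at 5 FPKM or more, and without a filter, where silent chains enter, it was -0.0996 in FTC-133 and -0.0184 in 8505C. Among the chains' differences, signs turned for COL1A2 and COL11A1 in FTC-133 under quantile normalization and for no chain under median centring, GC trend removal or the other pseudocounts. In the line fit, 6 chains were higher in 8505C than in BHT-101, against 2 without a filter and 2 to 6 with 1 library left out, the lower value without either BHT-101 library or without the 8505C empty vector library. Quantile normalization set the median of all genes at 0.05 for 8505C minus FTC-133, against -0.13 as deposited, and at 0.03 for FTC-133 minus BHT-101, against 0.16. No chain passed the knockdown or CRABP2 arm fits under any alternative run. With no replicate block 0 chains passed and 22 and 4 genes had an unadjusted p under 0.05. Leaving a line out of the knockdown fit leaves no residual degrees of freedom, so only values within each line were given. With 1 library a group, a response to CRABP2 and variation between cultures cannot be told apart.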
